A study of Mus musculus with 6 samples.

Results

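The genes described here are 10 genes of elastic fibres and of the oxytalan microfibrils of the tooth, namely Eln, Fbn1, Fbn2, Fbln1, Fbln2, Fbln5, Efemp1, Efemp2, Emilin1 and Mfap5. They are a list of names that share a role in the matrix, drawn up with earlier results of these data known, and all 10 were found among the 23594 genes measured. All 10 also passed the filter on low counts, which left 20114 genes for testing.

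RNA was sequenced from apical tissue at the furcation development region (FDR) of mandibular first molars at PN4.5, postnatal day 4.5, in 3 Control and 3 Lhx6-/- libraries. The tissue was cut out of frozen sections by laser capture microdissection, and each library pooled tissue from 8 molars. Control mice were wild type for Lhx6 according to the labels, and Lhx6-/- mice were their littermates, homozygous for an Lhx6-CreER knock-in allele that disrupts Lhx6 in every cell of the animal. The comparison asks which transcripts differ without Lhx6 where the furcation forms. Both groups were on the C57BL/6 strain, neither received a treatment according to the labels, and the number of animals behind a pool is not given in the sources used here. A difference of a gene between the groups is therefore a difference between pools of tissue in which fewer cells of a type and less RNA per cell cannot be told apart.

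Elastic fibres have a core of cross-linked elastin laid down on a scaffold of fibrillin microfibrils, and fibulins, emilins and microfibril-associated glycoproteins join the core to the scaffold or to the cell surface. Oxytalan fibres are bundles of microfibrils with little or no elastin, and they are the elastic system fibres best known from the periodontal ligament, where they run close to blood vessels and into the root surface. Microfibrils also hold latent TGF-beta and BMP complexes in the matrix.

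The summed estimated counts ran from 60132323 to 76157433 per library. Levels are given as counts per 1000000 (CPM) after TMM scaling, and the genotypes were compared by the quasi-likelihood test of edgeR, adjusted after Benjamini and Hochberg over all 20114 genes, the source of each adjusted p except where DESeq2 or the range over alternative fits is named. An adjusted p under 0.05 is called a change, and the threshold of the study's methods, a 1.5-fold difference or more together with p under 0.05 before adjustment, is given beside it as the fold and p rule. Lhx6 itself was at 48.8% of its Control level in the mutant libraries (log2 fold change -1.04, standard error 0.16, adjusted p = 0.021), with an adjusted p of 0.111 without Control 3, 0.11 without Lhx6-/- 2 and 0.0772 without Lhx6-/- 3. The fits without these libraries called 12, 20 and 63 of all tested genes, against 81 with all libraries. Between 731 and 783 reads of Lhx6 remained per Lhx6-/- library, and a total per gene cannot show whether the knock-in allele made them, so this level alone is no check of a homozygous null. The labelled tissue was checked against marker lists, and all 8 dental mesenchyme markers were detected in every library, together with markers of epithelium, ameloblasts, odontoblasts, bone, muscle, vessels and blood.

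The bases in front of the start sites are shown first for Fbln5, which rose, and for Fbln1 and Efemp1, relatives of Fbln5 that did not pass the test at an adjusted p under 0.05. Lhx6 is a homeodomain protein, and many homeodomain proteins of the LIM class bind the palindrome TAATTA, while GGGCGG is the GC box of many promoters. Sequences are those of RefSeq on GRCm38.p6, 250 bases up to the start site, 5′ to 3′ along the gene, with a match to TAATTA or GGGCGG on either strand in capitals. A GGGCGG match on the opposite strand reads CCGCCC.
Fbln5, upstream start, chr12:101819120-101819369, minus strand: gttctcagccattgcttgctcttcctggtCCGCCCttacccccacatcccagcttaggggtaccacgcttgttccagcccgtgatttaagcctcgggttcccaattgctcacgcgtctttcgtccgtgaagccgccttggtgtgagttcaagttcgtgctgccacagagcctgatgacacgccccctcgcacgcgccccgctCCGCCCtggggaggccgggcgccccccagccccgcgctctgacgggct
Fbln5, downstream start, chr12:101818485-101818734, minus strand: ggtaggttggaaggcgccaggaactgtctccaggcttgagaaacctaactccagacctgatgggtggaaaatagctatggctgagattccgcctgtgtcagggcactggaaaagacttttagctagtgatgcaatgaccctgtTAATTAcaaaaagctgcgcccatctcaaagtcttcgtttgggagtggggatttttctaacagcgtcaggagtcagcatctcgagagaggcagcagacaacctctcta
Fbln1, upstream start, chr15:85205699-85205948, plus strand: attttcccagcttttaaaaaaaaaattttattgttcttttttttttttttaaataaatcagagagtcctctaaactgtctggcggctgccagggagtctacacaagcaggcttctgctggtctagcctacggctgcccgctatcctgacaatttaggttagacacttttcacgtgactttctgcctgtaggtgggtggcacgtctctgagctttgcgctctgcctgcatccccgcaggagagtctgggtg
Efemp1, chr11:28852955-28853204, plus strand: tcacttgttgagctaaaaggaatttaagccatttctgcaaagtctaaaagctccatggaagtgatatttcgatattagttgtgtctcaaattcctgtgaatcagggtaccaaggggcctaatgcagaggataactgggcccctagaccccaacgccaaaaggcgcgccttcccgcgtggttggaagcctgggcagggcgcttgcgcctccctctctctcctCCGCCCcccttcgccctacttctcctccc

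The window of the upstream Fbln5 start held GGGCGG at 221 and 48 bases before the start. The window of the downstream Fbln5 start, which lies in an intron apart from 1 coding base, held TAATTA at 107 bases before the start and no GGGCGG. The upstream Fbln1 window, printed above, held neither, while the window of the downstream Fbln1 start, chr15:85205758-85206007, held GGGCGG at 11 bases before the start. The Efemp1 window held GGGCGG at 29 bases before the start. Windows were at hand for 7 of the 10 genes, 11 in all, since several genes have more than 1 start. Eln, Fbn2 and Mfap5 had no window and were not searched. TAATTA was found in 1 of the 11 windows, that of Fbln5, and GGGCGG in 8 of the 11, from 6 genes. The Efemp2 windows at chr19:5474440-5474689 and chr19:5474485-5474734 overlap, so the same matches count in both. The windows of Fbn1, Emilin1 and Fbln2 are annotated as untranslated sequence over all 250 bases, so they do not lie in front of every annotated transcript. Among all 32851 windows of this length, 4.84% held TAATTA and 32.7% held GGGCGG. These matches describe letters in a window and were not tested for binding.

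Of the 10 genes, Eln and Fbln5 rose in Lhx6-/- tissue, and none fell. By comparison, 0.403% of all tested genes had an adjusted p under 0.05, and 0.323% were higher with an adjusted p under 0.05. The log2 fold change was above 0 for 8 of the 10 genes and for 49.7% of all tested genes. Its median over the 10 genes was 0.31, with a range of -0.09 to 0.49, against a median of 0 over all tested genes. None of the 10 genes reached 1.5-fold, while the fold and p rule was met by 3.28% of all tested genes. Without the fold limit, 5 of the 10 genes were higher at an unadjusted p under 0.05, against 4.75% of all tested genes, and 9.81% passed that limit in either direction. In 6 of the 10 genes all 3 Lhx6-/- libraries lay above all 3 Control libraries, against 7.86% of all tested genes, and in the other 4 the groups overlapped.

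**Figure D1:**
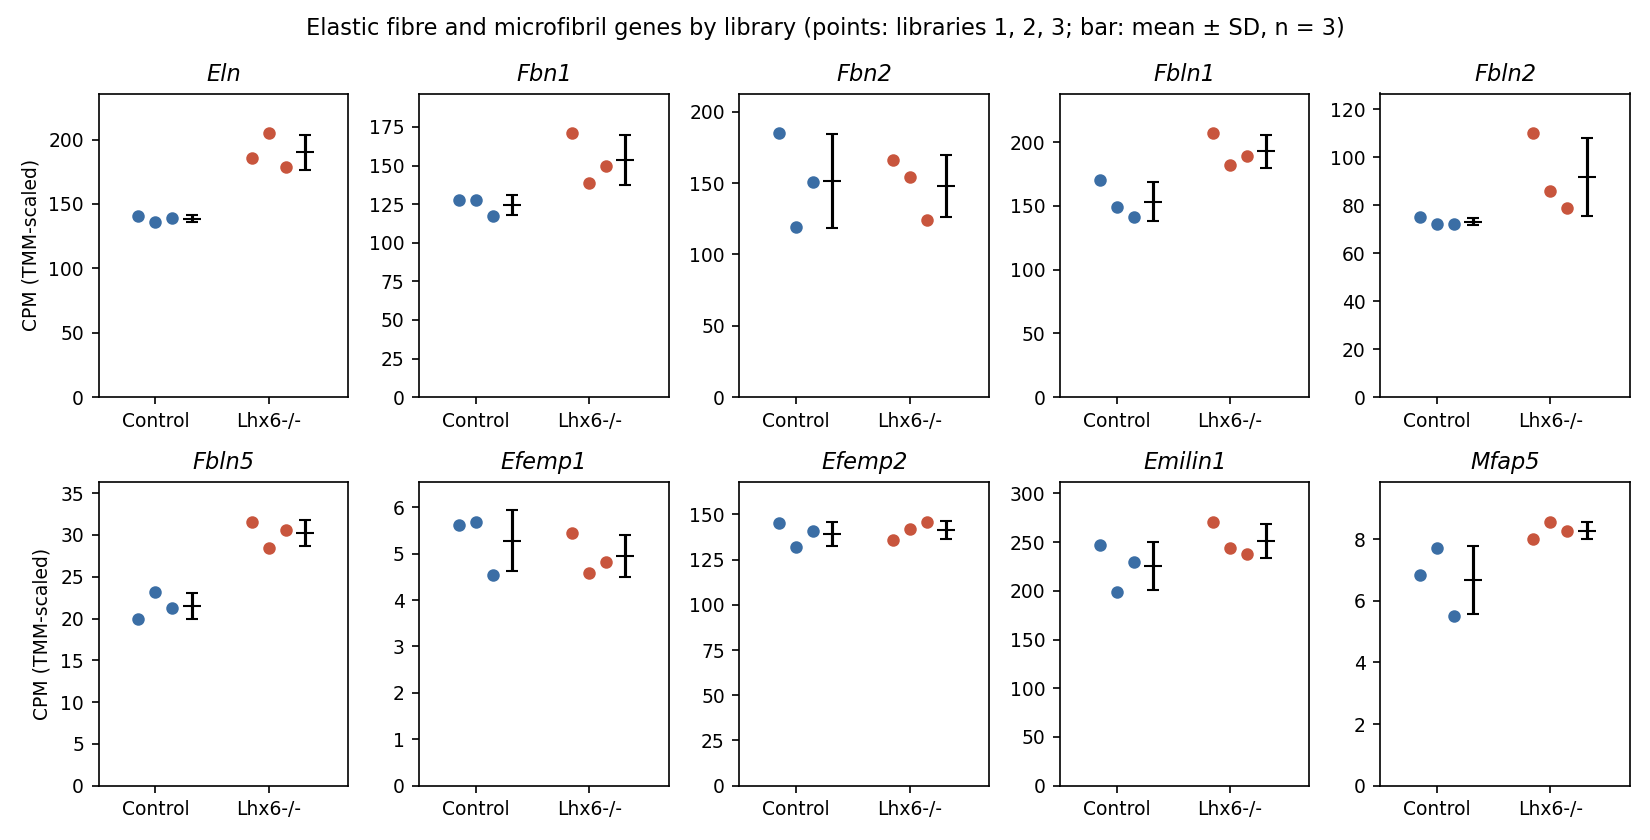
Level in CPM (vertical axes, each starting at 0) of the 10 genes in 3 Control (blue) and 3 Lhx6-/- (red) libraries, with the mean and SD as black bars (n = 3). The red points lie above all blue points for Eln, Fbn1, Fbln1, Fbln2, Fbln5 and Mfap5, and the groups overlap for Fbn2, Efemp1, Efemp2 and Emilin1.

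Eln encodes tropoelastin, the monomer that is cross-linked into the elastin core. It lies on chromosome 5 from 134702593 to 134747323, minus strand (mm10, as are all gene positions here). Its level was 141, 136 and 139 CPM in Control libraries 1, 2 and 3 and 186, 205 and 179 CPM in Lhx6-/- libraries 1, 2 and 3. The Control libraries were close together, and every Lhx6-/- library was well above them. The mean went from 139 ± 2.48 to 190 ± 13.5 CPM (SD, n = 3 each), 1.37-fold (95% interval 1.23 to 1.53), on the log2 scale 0.46 (standard error 0.07, adjusted p = 0.021). Eln ranked 38 of the 20114 genes by p. A predicted gene, Gm30003, overlaps Eln on the other strand, and whether the counting used strand is not given in the sources used here.

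The adjusted p of Eln rose above 0.05 when some libraries were left out. It was 0.151 without Control 3, 0.0836 without Lhx6-/- 1 and 0.13 without Lhx6-/- 2. Over all tested genes these fits called 12, 31 and 20, against 81 with all libraries. The log2 fold change of Eln stayed between 0.40 and 0.50 over the 6 fits that each left out 1 library.

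The fibrillins form the microfibril backbone. Fbn1, on chromosome 2 from 125300594 to 125507993, minus strand, encodes the main fibrillin of postnatal tissue, and Fbn2 the one best known from development. Fbn1 was at 128, 128 and 117 CPM in Control and 171, 139 and 150 CPM in Lhx6-/- libraries. The groups did not overlap, with Lhx6-/- 1 the highest library. The log2 fold change of Fbn1 was 0.30 (standard error 0.08, adjusted p = 0.219), from 124 ± 6.6 to 153 ± 16.0 CPM (SD, n = 3 each), so it did not pass the test. A predicted gene, Gm9913, overlaps Fbn1 on the other strand.

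Fbn2 was at 185, 119 and 151 CPM in Control and 166, 154 and 124 CPM in Lhx6-/- libraries. Its groups overlapped through most of their range, and Control 1 was the highest of the 6 libraries. From 152 ± 33.4 to 148 ± 21.4 CPM (SD, n = 3 each), the log2 fold change of Fbn2 was -0.03 (standard error 0.17, adjusted p = 0.978). The 95% interval of -0.44 to 0.37 leaves room for a change of either sign.

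Fbln1 and Fbln2 encode the long fibulins, which bind fibronectin and basement membrane proteins. Fbln1 lies on chromosome 15 from 85205949 to 85286535, plus strand, and Fbln2 on chromosome 6 from 91212455 to 91272540, plus strand. Fbln1 was at 170, 149 and 141 CPM in Control and 207, 182 and 189 CPM in Lhx6-/- libraries, without overlap. Its log2 fold change was 0.33 (standard error 0.09, adjusted p = 0.179), from 153 ± 15 to 193 ± 12.9 CPM (SD, n = 3 each). The difference exceeded the spread within either group but did not pass the adjusted test.

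Fbln2 was at 75.0, 72.2 and 72.3 CPM in Control and 110, 86.0 and 78.9 CPM in Lhx6-/- libraries. The Control libraries differed little, and Lhx6-/- 1 stood above the other 2 Lhx6-/- libraries. From 73.2 ± 1.61 to 91.7 ± 16.4 CPM (SD, n = 3 each), the log2 fold change of Fbln2 was 0.33 (standard error 0.11, adjusted p = 0.316). Without Lhx6-/- 1 it was 0.17.

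The short fibulins are needed to place elastin on microfibrils. Fbln5 encodes fibulin-5, which binds tropoelastin, cell surface integrins and LOXL1, Efemp2 encodes fibulin-4, which brings lysyl oxidase to tropoelastin, and Efemp1 encodes fibulin-3. Fbln5, on chromosome 12 from 101746565 to 101819055, minus strand, was at 20, 23.2 and 21.3 CPM in Control and 31.6, 28.5 and 30.6 CPM in Lhx6-/- libraries. The lowest Lhx6-/- library was above the highest Control library. From 21.5 ± 1.64 to 30.2 ± 1.58 CPM (SD, n = 3 each), Fbln5 rose 1.41-fold (95% interval 1.23 to 1.61), on the log2 scale 0.49 (standard error 0.09, adjusted p = 0.0394), and ranked 65 of the 20114 genes by p.

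The call of Fbln5 was lost when any library but Control 2 was left out. The adjusted p was then 0.0827 without Control 1, 0.21 without Control 3, 0.19 without Lhx6-/- 1, 0.117 without Lhx6-/- 2 and 0.0988 without Lhx6-/- 3, with log2 fold changes of 0.45 to 0.55 over all 6 such fits. Over all tested genes, the fits without these libraries called 127, 12, 31, 20 and 63, in the same order.

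Efemp2, on chromosome 19 from 5473954 to 5482517, plus strand, was at 145, 132 and 141 CPM in Control and 136, 142 and 146 CPM in Lhx6-/- libraries. The groups overlapped nearly completely. From 139 ± 6.64 to 141 ± 4.81 CPM (SD, n = 3 each), the log2 fold change of Efemp2 was 0.02 (standard error 0.07, adjusted p = 0.963), and its 95% interval of -0.13 to 0.17 is among the narrowest of the 10 genes. Mus81 overlaps Efemp2 on the other strand.

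Efemp1, on chromosome 11 from 28853204 to 28926743, plus strand, had estimated counts of only 268 to 380 per library. It was at 5.62, 5.69 and 4.53 CPM in Control and 5.45, 4.59 and 4.81 CPM in Lhx6-/- libraries, with overlap. The log2 fold change of Efemp1 was -0.09 (standard error 0.17, 95% interval -0.46 to 0.28, adjusted p = 0.924), from 5.28 ± 0.649 to 4.95 ± 0.446 CPM (SD, n = 3 each).

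Emilin1 encodes a glycoprotein at the interface of elastin and microfibrils that also restrains TGF-beta processing. It lies on chromosome 5 from 30913402 to 30921277, plus strand, and was at 247, 199 and 230 CPM in Control and 271, 244 and 238 CPM in Lhx6-/- libraries. Control 1 was above the lowest 2 Lhx6-/- libraries, so the groups overlapped. The log2 fold change of Emilin1 was 0.16 (standard error 0.09, adjusted p = 0.642), from 225 ± 24.3 to 251 ± 17.7 CPM (SD, n = 3 each), and 0.08 without Control 2 or 0.10 without Lhx6-/- 1.

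Mfap5 encodes a microfibril-associated glycoprotein that binds fibrillins and is found on elastin-free microfibrils. It lies on chromosome 6 from 122505845 to 122529290, plus strand, and was at 6.83, 7.71 and 5.51 CPM in Control and 7.99, 8.57 and 8.28 CPM in Lhx6-/- libraries. The Lhx6-/- libraries were close together just above the highest Control library. From 6.68 ± 1.1 to 8.28 ± 0.29 CPM (SD, n = 3 each), the log2 fold change of Mfap5 was 0.31 (standard error 0.15, adjusted p = 0.56), and 0.19 without Control 3.

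Levels of different genes were compared per length, as CPM per kb of exon. The length was that of every annotated exon of a gene, counted once where exons overlap. A transcript can be shorter than this, and which transcripts were present was not tested. The order of the genes below therefore holds for this length alone. In Control tissue Emilin1 was highest, with a mean of 45.6, followed by Efemp2 at 36.8, Fbln1 at 35.1, Eln at 17.1, Fbln2 at 11.5, Fbn2 at 11.5, Fbn1 at 10.2, Fbln5 at 3.11, Efemp1 at 2.59 and Mfap5 at 1.86 CPM per kb. The ranges of neighbouring genes overlapped for Efemp2 and Fbln1, for Fbln2 and Fbn2 and for Fbn2 and Fbn1, so their order is not resolved by these libraries, while the other neighbours did not overlap. In Lhx6-/- tissue Fbln1 stood above Efemp2, at 44.2 against 37.3 CPM per kb. By the means Fbn1 stood above Fbn2, at 12.7 against 11.2 CPM per kb, and the other genes kept their places. The Lhx6-/- ranges overlapped for Fbln2 and Fbn1, for Fbn1 and Fbn2 and for Efemp1 and Mfap5, so their order is not resolved there. Per length of all annotated exons, Emilin1, Efemp2 and Fbln1 were the 3 highest and Fbln5, Efemp1 and Mfap5 the 3 lowest in both genotypes.

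**Figure D2:**
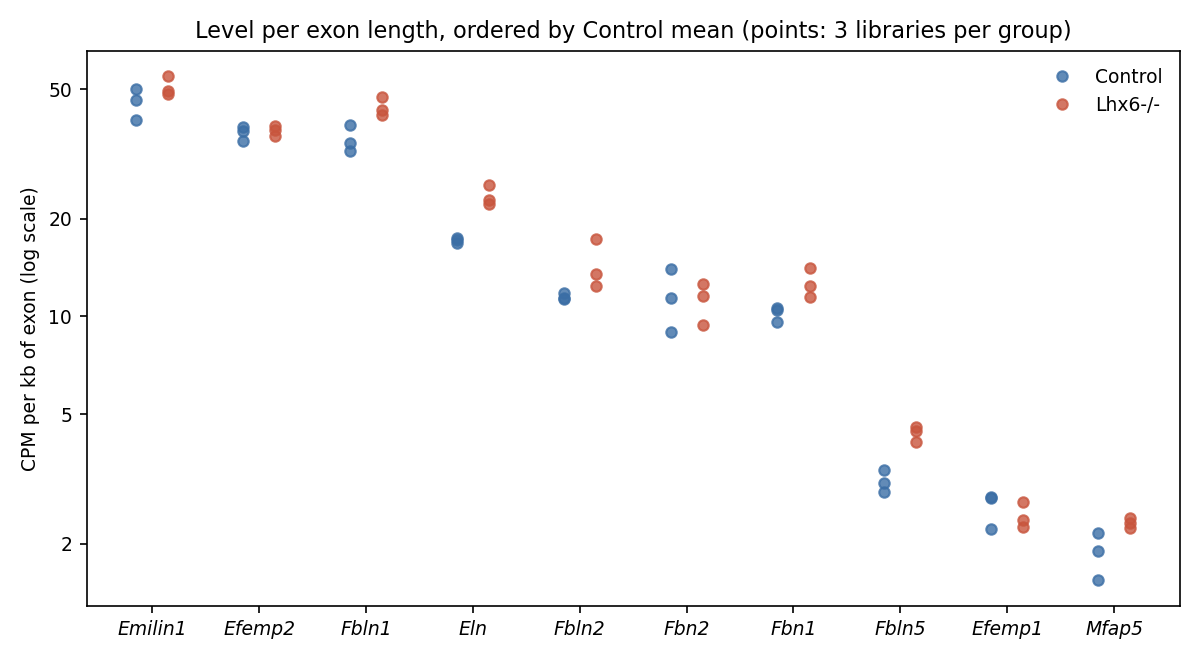
Level per exon length (CPM per kb, log axis) of the 10 genes in Control (blue) and Lhx6-/- (red) libraries, ordered by the Control mean. The genes span from 1.86 CPM per kb for Mfap5 to 45.6 CPM per kb for Emilin1 in Control, and the red points lie above the blue points for 6 of the 10 genes.

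Among 35 further genes of the same assembly pathway, 34 were tested, and Mmp12, which cuts elastin, had too few counts. These genes too were chosen with earlier results of these data known. Mfap4 and Emilin3 rose and none fell, while 0.323% of all tested genes were higher with an adjusted p under 0.05. The log2 fold change was above 0 for 29 of the 34, against 49.7% of all tested genes. Its median was 0.13, against 0 over all tested genes. The fold and p rule was met by 3 of the 34, all higher, against 1.58% of all tested genes.

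All 7 microfibril-associated proteins and latent TGF-beta binding proteins had a log2 fold change of 0 or more, and 1 rose. This was Mfap4, on chromosome 11 from 61485431 to 61488900, whose protein binds elastin and fibrillin. Mfap4 was at 117, 91.4 and 108 CPM in Control and 191, 170 and 150 CPM in Lhx6-/- libraries, well apart. It rose 1.62-fold, on the log2 scale 0.69 (standard error 0.11, adjusted p = 0.021), and Mapk7 overlaps it on the other strand. Of the other members of this list, Mfap2 went from 111 to 141 CPM (log2 fold change 0.34, adjusted p = 0.171), Ltbp3 from 338 to 378 CPM (0.16, adjusted p = 0.523) and Ltbp4 from 124 to 144 CPM (0.22, adjusted p = 0.441), none past the test.

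Of 7 other fibulins, hemicentins and members of the emilin family, 6 were higher, 1 was lower and 1 rose. Emilin3, on chromosome 2 from 160906437 to 160912328, encodes an extracellular relative of Emilin1. It was at 15.2, 10.8 and 14.0 CPM in Control and 29, 27.1 and 22.7 CPM in Lhx6-/- libraries, with a wide gap between the groups. Emilin3 rose 1.97-fold, on the log2 scale 0.98 (standard error 0.14, adjusted p = 0.011), the highest value among the 34 genes. Both calls were lost when certain libraries were left out. The adjusted p of Emilin3 was then 0.0829 without Control 3, 0.0664 without Lhx6-/- 1 and 0.0796 without Lhx6-/- 2, and that of Mfap4 was 0.119, 0.0837 and 0.101 without the same libraries. Those fits called 12, 31 and 20 of all tested genes.

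None of the 5 lysyl oxidases, which cross-link elastin and collagen, passed the test, and their log2 fold changes lay between 0.07 and 0.14. Lox went from 421 ± 58.6 to 463 ± 83.6 CPM (SD, n = 3 each), with overlap and an adjusted p of 0.829. Of 9 ADAMTS and ADAMTS-like genes, whose proteins bind or process fibrillin, 8 were higher, 1 was lower and none had an adjusted p under 0.05. Adamtsl1 met the fold and p rule, with 12.6, 8.83 and 12.8 CPM in Control and 21.3, 16.7 and 14.1 CPM in Lhx6-/- libraries (log2 fold change 0.61, standard error 0.18) and an adjusted p of 0.264, and Sh3gl2 overlaps it. Of the 6 tested proteases that cut elastin, 3 were higher, 3 were lower and none passed the test, among them Mmp2 (420 to 505 CPM, log2 fold change 0.27, adjusted p = 0.284), Mmp9 (1280 to 1184 CPM, -0.11) and Ctsk (1223 to 1136 CPM, -0.11).

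**Figure D3:**
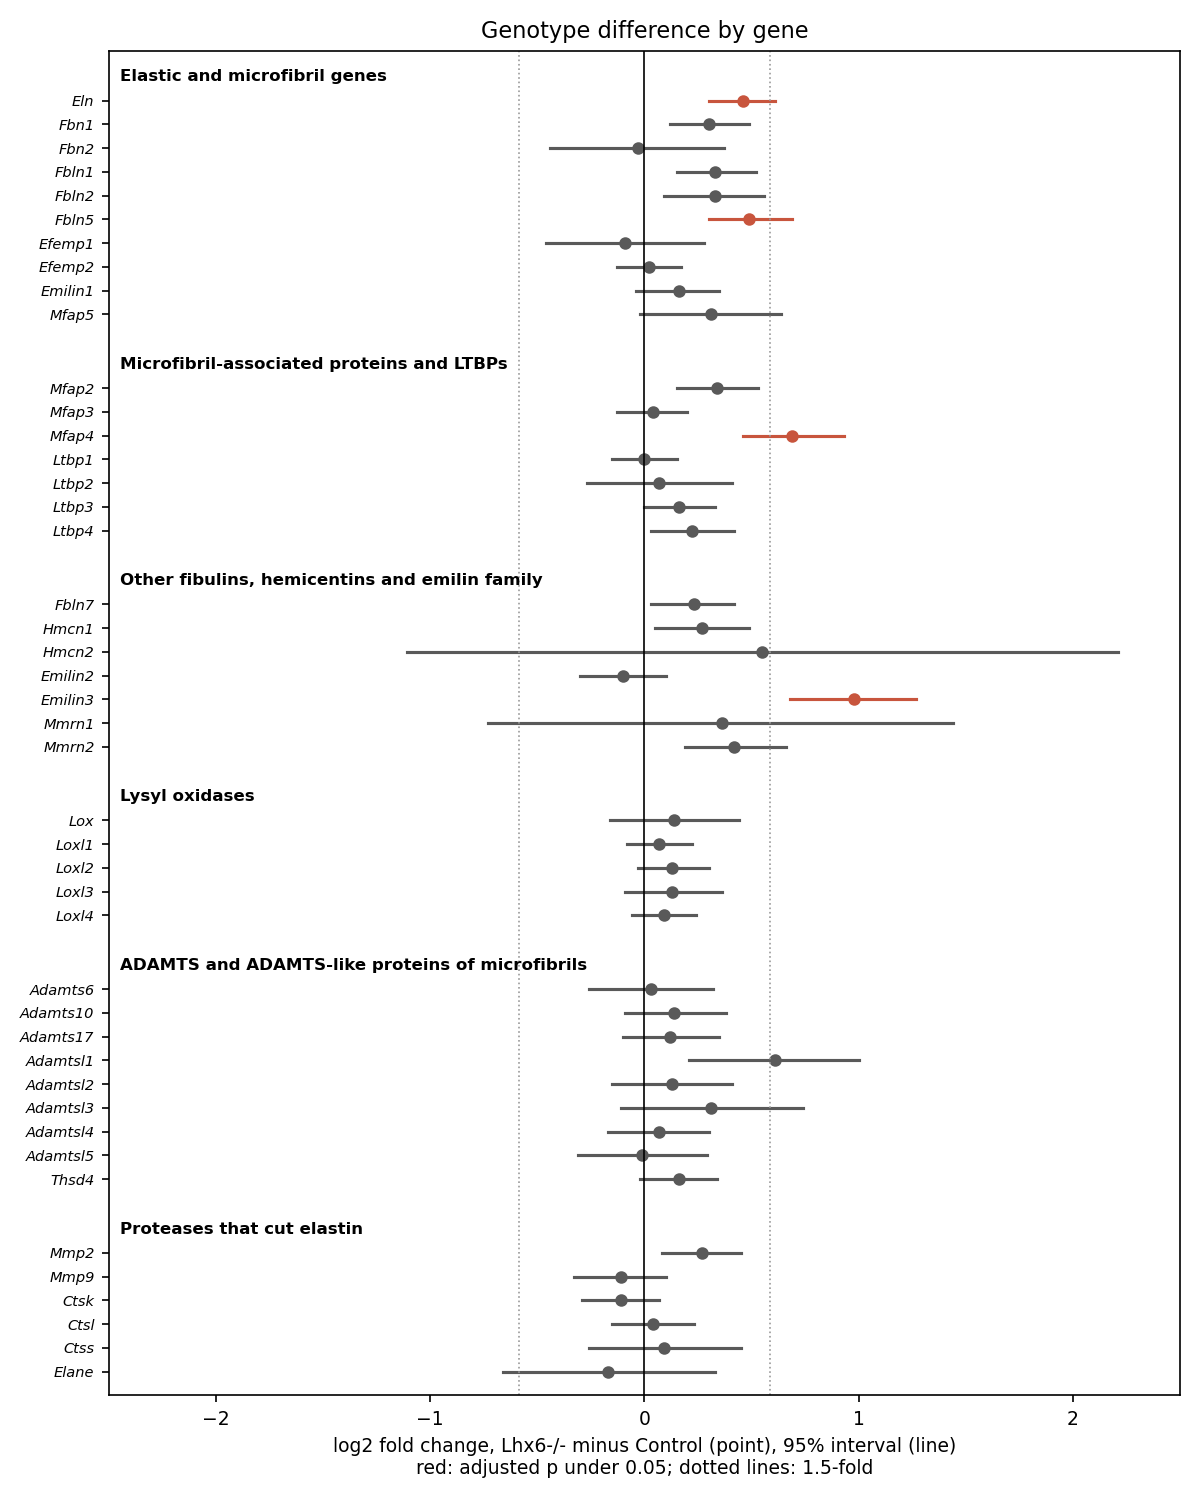
Log2 fold change of Lhx6-/- against Control (horizontal axis, point) with its 95% interval (line) for the 10 genes and for 34 genes of the same assembly pathway, in groups. Red marks the 4 genes with an adjusted p under 0.05, Eln (0.46), Fbln5 (0.49), Mfap4 (0.69) and Emilin3 (0.98), and the dotted lines mark 1.5-fold.

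The summed level of the 10 genes was 1124, 972 and 1019 CPM in Control and 1290, 1195 and 1152 CPM in Lhx6-/- libraries, 117% of Control, without overlap. Some marker lists also lay above Control without overlap, and that of dental follicle and periodontal ligament did not. Smooth muscle and pericyte markers summed to 516 to 545 CPM in Control and 636 to 740 CPM in Lhx6-/- libraries, 129% of Control. Of these 9 markers, 8 were higher, 5 overlapped between the groups and 1 passed the test, Rgs5, which went from 135 to 219 CPM. Endothelial markers summed to 269 to 280 CPM and 313 to 363 CPM, 121% of Control, with 7 of 7 higher and 1 past the test. Dental mesenchyme markers summed to 1443 to 1523 CPM and 1655 to 1667 CPM, 111% of Control, with 8 of 8 higher and none past the test.

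Other lists went down, overlapped or, for odontoblasts, were also higher. Dental epithelium markers summed to 1137 to 1767 CPM in Control and 794 to 918 CPM in Lhx6-/- libraries, 62.2% of Control, with 0 of 8 higher, and erythroid markers stood at 62.9% of Control. Markers of dental follicle and periodontal ligament, the cells best known for oxytalan fibres, overlapped in sum between the groups at 102% of Control. That sum was made up mostly of Postn (962 CPM in Control, 960 CPM in Lhx6-/-) and Col12a1 (643 and 691 CPM). Of the 8 markers on this list, 4 were higher, 4 were lower and none had an adjusted p under 0.05. Odontoblast markers were at 122% of Control without overlap, a sum made up mostly of Dspp, which went from 4466 to 5606 CPM. Of these 5 markers, 2 lay above all Control libraries, 1 lay below them and 2 overlapped. No marker on any list was at 0 in all libraries. Y-linked genes summed to 14.5 to 58.0 CPM in Control and 55.0 to 92.2 CPM in Lhx6-/- libraries, 262% of Control. Only Control 2 and Lhx6-/- 1 overlapped, so Y-linked RNA differed between the pools largely along with genotype. The part of these lists in the levels of the 10 genes was not tested apart from the fits that follow.

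**Figure D4:**
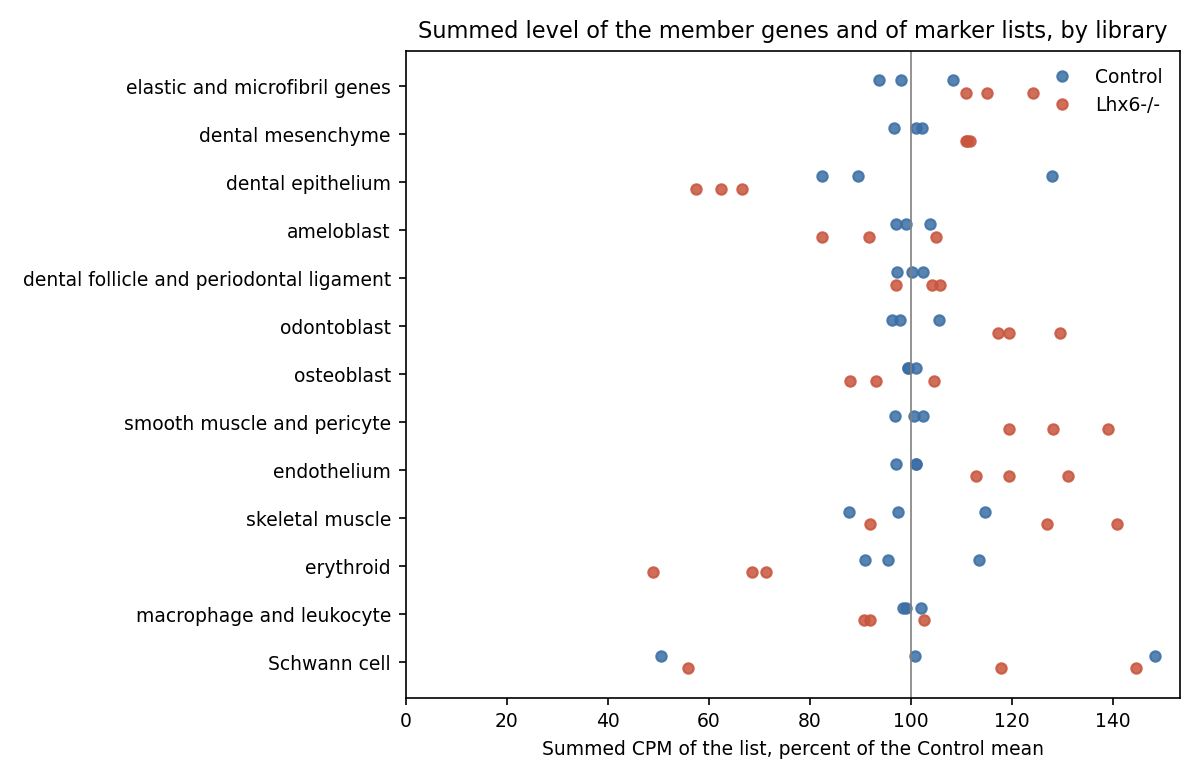
Summed CPM of the 10 genes and of marker lists in each library, as percent of the Control mean (horizontal axis from 0), in Control (blue) and Lhx6-/- (red) libraries. Y-linked genes are not drawn. The 10 genes (117%), dental mesenchyme (111%), odontoblast (122%), smooth muscle and pericyte (129%) and endothelial markers (121%) lie above Control without overlap, and dental epithelium (62.2%) and erythroid markers (62.9%) below.

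When the level of a marker list entered the fit as a covariate, no call among the 10 genes remained. With epithelial markers the log2 fold change of Eln was 0.40 (adjusted p = 0.248) and that of Fbln5 was 0.67 (adjusted p = 0.147). With Y-linked genes they were 0.47 (adjusted p = 0.0617) and 0.40 (adjusted p = 0.162). With smooth muscle and pericyte markers they were 0.65 and 0.30, and with endothelial markers, a covariate added after seeing the data, 0.45 and 0.36, all with an adjusted p of 1. The epithelial, smooth muscle and endothelial lists each separated the genotypes without overlap, and over all genes 12, 0 and 1 genes were called in these fits, so marker level and genotype can hardly be told apart there. The fit with Y-linked genes differed from these, as it called 233 of all tested genes, against 81 without a covariate. Eln and Fbln5 were higher in Lhx6-/- tissue in each of these 4 fits. Among the pathway genes, the calls of Mfap4 and Emilin3 were also lost with the epithelial covariate, at log2 fold changes of 0.28 (adjusted p = 0.478) and 0.43 (adjusted p = 0.429). They were lost with the smooth muscle covariate (0.40 and 0.80) and the endothelial covariate (0.39 and 0.71), each with an adjusted p of 1, and kept with the Y-linked covariate (0.98 and 1.37).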

How the data were processed

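RNA of laser-captured apical FDR tissue was analysed in 3 Control and 3 Lhx6-/- libraries. The authors trimmed single-end reads, aligned them to mm10 with STAR 2.6.1d and quantified them per gene, and the processing notes also name Partek. The counter, its annotation and its use of strand are not given in the sources used here. The authors deposited estimated counts per gene, without normalization, and the highest library of each gene holds 10 or more. Their comparison table holds p-values, false discovery rates, ratios, fold changes and group means, which were not used. Of that table the deposited total and maximum scores per gene, sums and maxima of 1 + CPM over libraries, served to check that its gene names follow the order of the counts (largest relative deviation 1.71e-07 over 23594 genes), and its gene positions were used. Of its genes, 23061 were matched to GENCODE vM21 (GRCm38, the same build), from which exon lengths were taken. The deposited counts summed to 79.96% to 85.19% of the total that the scores imply per library.

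Estimated counts were rounded and tested for genotype alone, two-sided, with edgeR 4.0.16 in R 4.3.3 (TMM factors 0.977 to 1.04, robust dispersion, edgeR's expression filter, biological coefficient of variation 0.202). Standard errors were taken from the log2 fold change and F. With 3 libraries per group the spread between pools limits the precision of abundant genes. The p-values set the genotype difference against that spread, moderated over all genes, and not against the spread between animals within a pool. Code was tested on simulated data. The 10 genes and all lists were chosen with earlier results of these data known. Named genes were Lhx6, the 10 genes, pathway genes that met either threshold, and otherwise up to 3 genes of a list with the highest CPM. The 19 alternative fits were other scalings, filters and dispersion, DESeq2 1.42.0, limma-trend (limma 3.58.1, prior count 2), a replicate block, 4 covariates and leaving out each library. Figures were drawn with matplotlib 3.10.9.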

Additional observations from a re-analysis of the deposited data

How the results depend on the processing

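Over 19 alternative fits, Eln and Fbln5 kept a log2 fold change above 0, at 0.40 to 0.65 and 0.30 to 0.67, with an adjusted p under 0.05 in 12 and 8 fits and a range of 1.41e-06 to 1 and 0.000408 to 1, the lowest values from DESeq2. The fits differed in how many of all tested genes they called. DESeq2 called 315, non-robust dispersion 65 and the replicate block 134, against 81 as reported. The epithelial, Y-linked, smooth muscle and endothelial covariates gave 12, 233, 0 and 1, and leaving out a library gave 12 to 127. The number of the 10 genes with an adjusted p under 0.05, 2 as reported, was 4 with DESeq2, which called more genes in all. It was 1 with non-robust dispersion, 1 with the replicate block, 0 with each of the 4 covariates and 0 to 2 with a library left out. The number that met the fold and p rule, 0 as reported, was 3 with the epithelial covariate, 1 with the smooth muscle covariate and 5 without the fold limit. That of the pathway genes was 1 with the epithelial covariate, and that of all genes, 660 as reported, was 1174 with the Y-linked covariate. The median log2 fold change of the 10 genes was 0.17 with the epithelial, 0.40 with the Y-linked, 0.12 with the endothelial and -0.09 with the smooth muscle covariate, and 0.20 to 0.33 with a library left out. The log2 fold change of Lhx6 was -0.62, -1.75 and -1.21 with the Y-linked, smooth muscle and endothelial covariates, none with an adjusted p under 0.05, -1.61 with the epithelial covariate (adjusted p = 0.00534), and -1.17 to -0.86 with a library left out.

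Signs reversed with the smooth muscle covariate for Fbn1 (-0.21), Fbln1 (-0.08), Fbln2 (-0.25) and Emilin1 (-0.10), with the endothelial covariate for Fbln2 (-0.24) and Adamtsl1 (-0.02), with the epithelial covariate for Efemp2 (-0.07), Emilin1 (-0.17) and Adamtsl1 (-0.08), and with the Y-linked covariate for Fbn2 (0.41). Leaving out Control 1 or Lhx6-/- 3 gave 0.14 and 0.08 for Fbn2 (range -0.18 to 0.14 with a library left out), and leaving out Control 2 or Lhx6-/- 3 gave -0.02 and 0 for Efemp2. The causes were not tested. The study's methods mention 3 pairs of samples, but which libraries pair is not given in the sources used here. Numbers in the titles were not taken as pairs, since the deviations of libraries with the same number correlated at -0.03 to 0.03. The descriptions number the Lhx6-/- libraries differently, from 2 to 4, and the block used the titles alone. Another pairing was not fitted, so the pairing stays unknown. With the replicate block the adjusted p of Fbln5 was 0.052 in a fit that called 134 genes in all.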

Other observations

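The balance between related genes was read within each library as a ratio of levels per exon length, chosen after seeing the data. The ratio of Efemp1 to Fbln5 was 0.956, 0.831 and 0.723 in Control and 0.585, 0.547 and 0.533 in Lhx6-/- libraries, without overlap (two-sided exact permutation test, p = 0.1, the smallest that 3 against 3 libraries allow). Since Fbln5 had already been called higher and Efemp1 had not, this ratio restates the rise of Fbln5 and is no separate result. The ratio of Fbn2 to Fbn1 was 1.33, 0.854 and 1.18 in Control and 0.891, 1.01 and 0.761 in Lhx6-/- libraries, with overlap (exact permutation p = 0.3). The ratio of Eln to Lox in CPM was 0.371, 0.279 and 0.352 in Control and 0.474, 0.465 and 0.323 in Lhx6-/- libraries, also with overlap (exact permutation p = 0.3). No other ratio was computed.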
